A study of Mus musculus with 9 samples.

Results

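The genes followed here are 5 that are used to recognise macrophages, measured across 3 stimulations of cultured mouse macrophages. They are Csf1r (UniGene cluster 'Mm.22574'), Adgre1 ('Mm.2254', which encodes the antigen 'F4/80'), Cd68 ('Mm.15819'), Itgam ('Mm.262106', CD11b) and Itgax ('Mm.22378', CD11c). They were chosen by cluster number, and all 5 were found, each as a single probe set, among 17810 clusters. The deposited table holds cluster numbers only, so the pairing of number and gene is that of the list of members and was not checked against the probes.

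Macrophages were grown from C57BL/6 bone marrow with 30 ng/ml of M-CSF, the ligand of the receptor that Csf1r encodes. From day 4 they were stimulated for 3 days. The first group received conditioned medium of the mouse melanoma line B16F1 together with 5e-07 M of the synthetic glucocorticoid dexamethasone and 10 ng/ml of interleukin 4 (IL-4) (cmB16F1+dexa+IL4, here the combination). The second received dexamethasone and IL-4 at those doses (dexa+IL4), and the third received the conditioned medium without them (cmB16F1). Each group had 3 arrays. Cells in plain medium were not analysed here, so no value can be set against unstimulated macrophages, and the labels do not say whether M-CSF stayed in the medium during stimulation. Nor do they say whether the arrays of a group came from separate cultures or animals, so the p-values measure the spread between these arrays, which may be technical.

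M-CSF acts through the tyrosine kinase receptor CSF1R, on which most macrophages depend for survival and differentiation. ADGRE1 is an adhesion-type G protein-coupled receptor of the cell surface that marks mouse macrophages, and CD68 is a heavily glycosylated protein of the late endosome and lysosome. CD11b and CD11c are alpha chains that each pair with the common beta-2 chain CD18 to form the complement receptors CR3 and CR4, which bind complement fragment iC3b, among other ligands. CD11b is shared with neutrophils and other myeloid cells, while CD11c is best known from dendritic cells and some tissue macrophages.

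The question asked of these genes was whether their levels were kept across the stimulations, and they did not follow one pattern. Itgam stood about the same distance below both other groups in dexa+IL4, and Cd68 stood above both there. Csf1r and Adgre1 differed by at most 1.24-fold between any groups. Itgax had its highest mean in the combination, with a wide spread between arrays. The order of its replicates was the same in every group.

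The values are log2 probe-set values normalized between arrays by the authors, over a scale from 5.86 to 14.2. The array medians lay between 7.19 and 7.25. The bacterial poly-A control sets, which mark the low end of the scale, reached at most 7.00, and all 5 genes lay above that on every array. Lists of markers for other cell types could not be applied, since the clusters carry no gene names, so other cells in these cultures were not analysed here. The hybridization controls averaged 10.39 ± 0.14 in the combination, 10.14 ± 0.10 in dexa+IL4 and 10.18 ± 0.14 in cmB16F1 (SD, n = 3 each). Scaling the arrays to these controls shifted the median change of all clusters to -0.26 for the combination against dexa+IL4 and to -0.20 for the combination against cmB16F1. A level is the amount of RNA relative to all RNA of a culture, in which fewer cells of a type and less RNA per cell cannot be told apart.

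**Figure D1:**
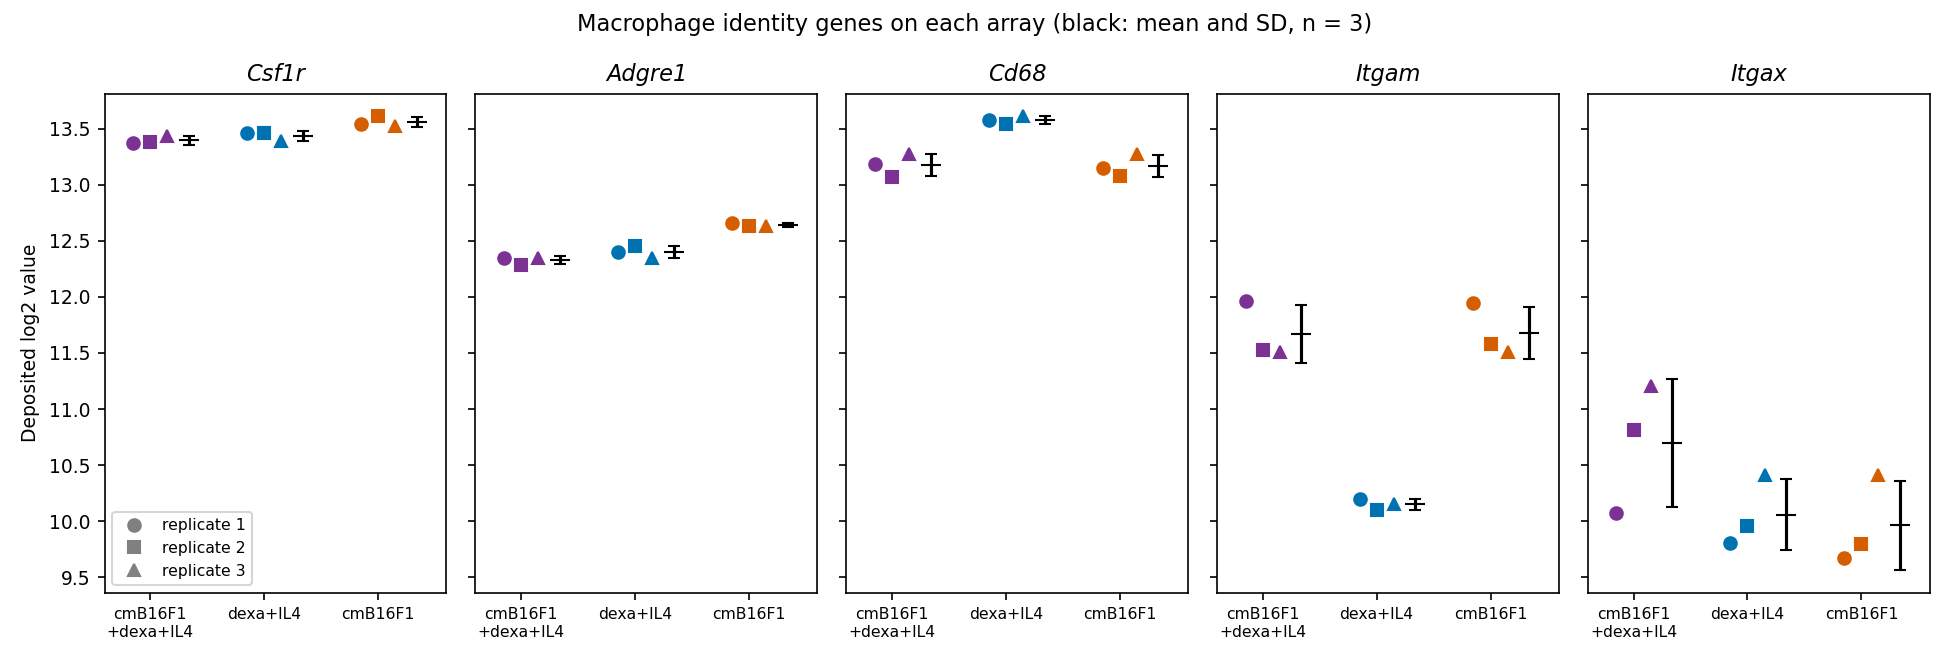
Deposited log2 value (vertical axis) of each gene on each of the 9 arrays, by group, with circles, squares and triangles for replicates 1, 2 and 3 and black marks for the mean and SD of 3 arrays. Heights are not comparable between genes. Itgam lies between 10.10 and 10.20 in dexa+IL4 and above 11.5 on all other arrays, while Csf1r and Adgre1 move within narrow bands.

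Csf1r, the M-CSF receptor gene, read 13.37, 13.38 and 13.44 on the log2 scale in the combination, 13.46, 13.46 and 13.39 in dexa+IL4, and 13.54, 13.61 and 13.53 in cmB16F1. All cmB16F1 arrays lay above all 6 others, and the 2 groups given dexamethasone and IL-4 overlapped. The combination was 1.12-fold lower than cmB16F1, a change of -0.16 (SE 0.04, limma with Benjamini-Hochberg adjustment, adjusted p = 0.035). This call was lost under 9 of 19 alternatives, among them leaving out combination replicate 1 or 2, dexa+IL4 replicate 1 or 2 or any one cmB16F1 array (limma adjusted p from 0.00777 to 0.125 over the 19). Dexa+IL4 missed the threshold against cmB16F1, at -0.12 (limma adjusted p = 0.0749), and passed it with quantile normalization (0.0119) and with array weights (0.0436). The difference between the combination and dexa+IL4 was -0.04 (95% confidence interval -0.14 to 0.06). On each array 7 to 22 sets of 17931 read higher than Csf1r, so a change may be compressed near the top of the scale.

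Adgre1, the adhesion-type receptor gene, read 12.35, 12.29 and 12.35 in the combination, 12.40, 12.45 and 12.35 in dexa+IL4, and 12.66, 12.63 and 12.63 in cmB16F1. As for Csf1r, the cmB16F1 arrays were the highest, without overlap. Adgre1 fell by 0.31 in the combination against cmB16F1 (SE 0.05, limma adjusted p = 0.00148), or 1.24-fold. In dexa+IL4 it was 1.18-fold lower than in cmB16F1, a change of -0.24 (limma adjusted p = 0.00451). Scaling to the hybridization controls ended that call, with a change of -0.20 and a limma adjusted p of 0.531. Relative to the median cluster, that change was -0.26 both as deposited and with this scaling. The combination and dexa+IL4 differed by -0.07, with a 95% interval from -0.18 to 0.03, and missed the threshold (limma adjusted p = 0.346). With scaling to the hybridization controls Csf1r and Adgre1 passed in this comparison at -0.30 and -0.33, which relative to the median cluster is -0.04 and -0.07.

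The clusters whose values were most like these across the 9 arrays were sought among 1649 that lay above the bacterial controls and whose group means spanned at least 0.5. Cluster Mm.29081 was most like Csf1r (Pearson r = 0.967 over 9 arrays in 3 groups), at 8.61 ± 0.05 in the combination, 8.74 ± 0.18 in dexa+IL4 and 9.25 ± 0.07 in cmB16F1 (SD, n = 3 each). Cluster Mm.34479 was most like Adgre1 (r = 0.985), at 7.33 ± 0.16 in the combination, 7.59 ± 0.06 in dexa+IL4 and 8.30 ± 0.07 in cmB16F1. Both were highest in cmB16F1, which follows from a search for likeness to genes that were highest there. Their wide span between groups was a condition of the search.

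Cd68, the lysosomal glycoprotein gene, read 13.19, 13.07 and 13.27 in the combination, 13.58, 13.54 and 13.61 in dexa+IL4, and 13.15, 13.07 and 13.27 in cmB16F1. All dexa+IL4 arrays lay above all 6 others. Cd68 fell by 0.40 in the combination against dexa+IL4 (SE 0.06, limma adjusted p = 0.00217), or 1.32-fold. Dexa+IL4 was 1.33-fold higher than cmB16F1, a change of 0.41 (limma adjusted p = 0.00111). Both calls passed under all 19 alternatives. Between the combination and cmB16F1 the Cd68 difference was 0.01, with a 95% interval from -0.13 to 0.15, and its sign turned with median centring (-0.003), with scaling to the hybridization controls (-0.20, limma adjusted p = 0.184) and without combination replicate 3 or cmB16F1 replicate 2. Relative to the median cluster, that difference was -0.002 as deposited, with median centring and with scaling to the hybridization controls alike. Cd68 also lay near the top of the scale, where a change may be compressed.

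The promoters of Cd68, Itgam and Itgax are shown, since Adgre1 had no sequence in the source used and Csf1r was left out by rule. They are RefSeq sequences of build GRCm38.p6 from 250 bases before to 50 bases after the annotated start, read 5' to 3' on the gene's strand, and 3 of the 5 genes have a sequence here. Capitals mark matches, on either strand, to 4 motifs: GAGGAA (the core bound by PU.1, a transcription factor of the myeloid lineage), TGANTCA (AP-1), TTC and GAA with 4 bases between them (STAT6-type, the factor downstream of the IL-4 receptor) and GNACA and TGTNC with 3 bases between them (glucocorticoid receptor).
Cd68 at chr11:69666121-69666420, minus strand: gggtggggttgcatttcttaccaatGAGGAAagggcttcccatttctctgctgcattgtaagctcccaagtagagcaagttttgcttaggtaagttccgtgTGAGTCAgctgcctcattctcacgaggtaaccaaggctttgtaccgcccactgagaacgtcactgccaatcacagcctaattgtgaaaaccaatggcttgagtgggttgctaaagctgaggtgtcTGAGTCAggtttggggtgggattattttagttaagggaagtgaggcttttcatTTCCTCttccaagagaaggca
Itgam at chr7:128062390-128062689, plus strand: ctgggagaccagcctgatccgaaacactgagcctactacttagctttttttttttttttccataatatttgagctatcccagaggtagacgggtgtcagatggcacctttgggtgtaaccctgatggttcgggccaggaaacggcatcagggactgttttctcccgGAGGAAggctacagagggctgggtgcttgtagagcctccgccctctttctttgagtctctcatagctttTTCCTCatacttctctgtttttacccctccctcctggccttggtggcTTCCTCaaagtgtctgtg
Itgax at chr7:128129300-128129599, plus strand: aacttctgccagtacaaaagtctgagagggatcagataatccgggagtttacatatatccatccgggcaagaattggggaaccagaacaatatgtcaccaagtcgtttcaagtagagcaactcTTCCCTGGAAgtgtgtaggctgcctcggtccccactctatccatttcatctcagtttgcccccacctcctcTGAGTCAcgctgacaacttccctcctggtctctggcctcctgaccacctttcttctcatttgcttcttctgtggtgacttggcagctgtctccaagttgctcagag
Itgam had 3 GAGGAA matches, at positions -84 to -79, -15 to -10 and 33 to 38 from the start, and none of the other motifs. Cd68 had GAGGAA at -225 to -220 and at 30 to 35, and TGAGTCA at -149 to -143 and again at -24 to -18. Itgax had TGAGTCA at -56 to -50 and the STAT6-type match TTCCCTGGAA at -127 to -118. No matches overlapped. Of 32851 promoters of the same length, 28.3% held GAGGAA, 7.81% the AP-1 motif, 6.95% the STAT6-type motif and 0.475% the glucocorticoid receptor motif. A match describes letters in the sequence and not binding.

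Itgam and Itgax are neighbours on chromosome 7, with 0 protein-coding genes between them in the annotation, yet their values differed in pattern. Itgam, the CD11b gene, read 11.96, 11.53 and 11.51 in the combination, 10.20, 10.10 and 10.15 in dexa+IL4, and 11.94, 11.58 and 11.51 in cmB16F1. The dexa+IL4 arrays lay more than 1 log2 unit below all 6 others. Itgam was 2.86-fold higher in the combination than in dexa+IL4, a change of 1.52 (SE 0.14, limma adjusted p = 9.876e-05). It was 2.88-fold lower in dexa+IL4 than in cmB16F1, a change of -1.53 (SE 0.14, limma adjusted p = 3.138e-05). Both calls passed under all 19 alternatives, with changes from 1.26 to 1.60 and from -1.61 to -1.39.

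Between the combination and cmB16F1 the Itgam difference was -0.01, with a 95% interval from -0.32 to 0.30 (limma adjusted p = 0.977), and its sign turned with array weights, at 0.02, and without combination replicate 2 or 3 or cmB16F1 replicate 1. Arrays of equal replicate number were nearly level in these 2 groups: the Itgam differences were 0.02, -0.05 and -0.0004, and those of Cd68 were 0.04, -0.001 and -0.0009. A block for replicate number gave a 95% interval for Itgam of -0.19 to 0.17 and for Cd68 of -0.08 to 0.10. In both groups, and in dexa+IL4 too, replicate 1 gave the highest Itgam value.

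Itgax, the CD11c gene, read 10.08, 10.81 and 11.21 in the combination, 9.81, 9.96 and 10.41 in dexa+IL4, and 9.68, 9.80 and 10.42 in cmB16F1. The groups overlapped, since combination replicate 1 lay below replicate 3 of both other groups. The combination averaged 10.70 ± 0.57, dexa+IL4 10.06 ± 0.32 and cmB16F1 9.96 ± 0.40 (SD, n = 3 each). Itgax had a residual SD of 0.44 within groups, larger than that of 99.7% of clusters, whose median was 0.06. The residual SD was 0.20 for Itgam, 0.08 for Cd68, 0.04 for Adgre1 and 0.04 for Csf1r. In a fit with a replicate block it was 0.19 for Itgax and 0.12 for Itgam. Itgax rose with replicate number in every group, so part of its spread within groups went with that number.

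The Itgax difference between the combination and dexa+IL4 was 0.64, with a 95% interval from 0.003 to 1.28, and missed the threshold (limma adjusted p = 0.159). That between the combination and cmB16F1 was 0.74, with an interval from 0.10 to 1.37, and missed it as well (limma adjusted p = 0.133). Arrays of equal number in the combination and cmB16F1 deviate together across clusters. A block for replicate number made the second difference pass, with an interval from 0.48 to 0.99 (limma adjusted p = 0.00226). That block was fitted over all 9 arrays, so it is not a paired test of these 2 groups alone. It also joined the dexa+IL4 arrays by number, which were not taken as paired. At equal replicate number the combination was above cmB16F1 by 0.40, 1.01 and 0.79, and above dexa+IL4 by 0.27, 0.85 and 0.79. Without combination replicate 1 both differences passed without a block, at 1.05 against cmB16F1 and 0.95 against dexa+IL4 (limma adjusted p = 0.0227 and 0.0311), and without combination replicate 3 they were 0.48 and 0.39. The 3' control set for 18S ribosomal RNA read 9.39, 9.98 and 10.45 in the combination, 9.17, 9.17 and 9.29 in dexa+IL4 and 9.24, 10.59 and 10.08 in cmB16F1. Its order matched that of Itgax in the combination and not in cmB16F1, where replicate 2 was highest. In dexa+IL4 replicate 3 was highest for both, while replicates 1 and 2 of the control set were nearly equal (9.173 and 9.168). The part of this control set in the Itgax values was not tested. In Itgax, dexa+IL4 and cmB16F1 differed by 0.10, with an interval from -0.54 to 0.73, and that sign turned without dexa+IL4 replicate 3 or cmB16F1 replicate 1, at -0.08 and -0.05.

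**Figure D2:**
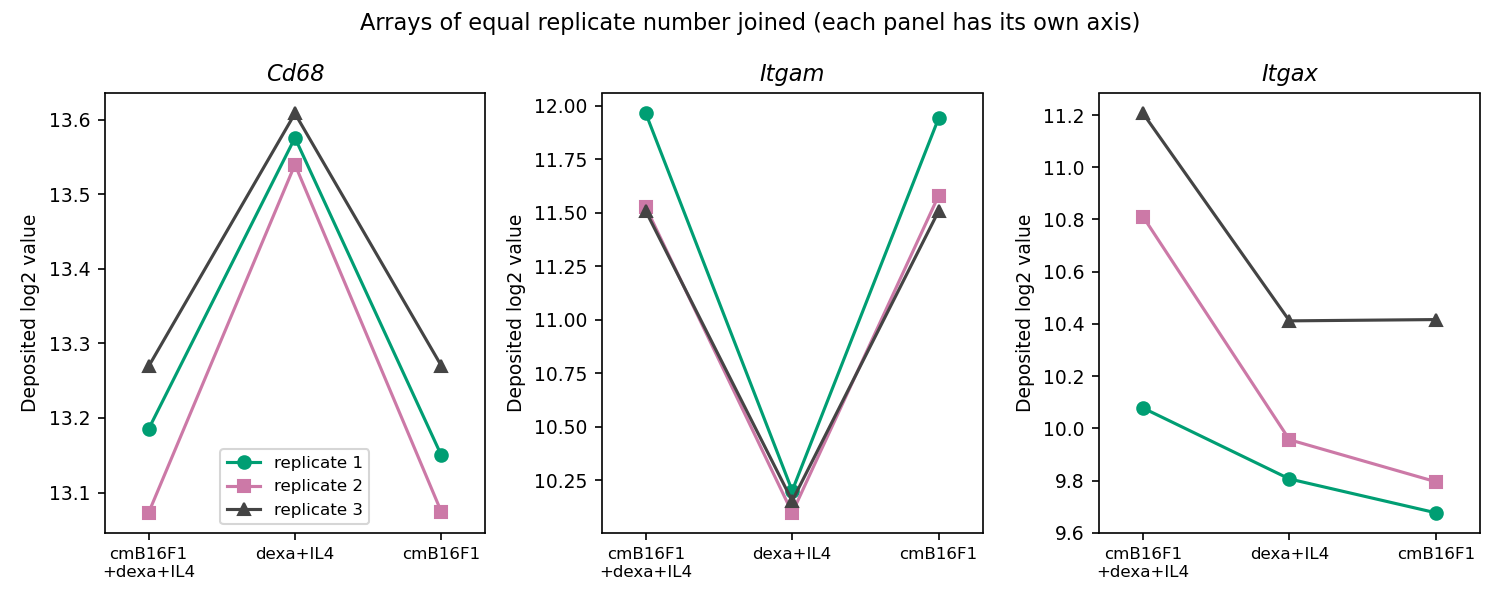
Deposited log2 values (vertical axes, 1 scale per panel) of Cd68, Itgam and Itgax in the 3 groups, with lines joining arrays of equal replicate number, which the labels do not say share a culture. The Cd68 and Itgam lines end level in the combination and cmB16F1, and each Itgax line is highest in the combination.

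Differences between 2 genes on the same array do not depend on a constant shift of that array's values, but can move with quantile normalization, and only their change between groups is read here. Itgam minus Itgax averaged 0.97 ± 0.82 in the combination, 0.09 ± 0.33 in dexa+IL4 and 1.71 ± 0.59 in cmB16F1 (SD, n = 3 each). The dexa+IL4 arrays ran from -0.26 to 0.39 and lay below all cmB16F1 arrays, which ran from 1.09 to 2.27, and the combination arrays spanned from 0.30 to 1.89. Adgre1 minus Cd68 averaged -0.85 ± 0.07 in the combination, -1.17 ± 0.09 in dexa+IL4 and -0.52 ± 0.10 in cmB16F1, with no overlap between any 2 groups. No test was made of these differences, which were picked with the values known. Any 2 groups were already without overlap in Adgre1 or in Cd68 alone.

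Counted over the 5 genes, 2 differed between the combination and dexa+IL4, where 17.9% of all clusters did. That share counts dim clusters too, while all 5 genes lay above the bacterial controls. Of the 10768 clusters whose mean lay above the highest of these controls, 3314 were called when fitted without the dim ones, a higher share. Itgam was higher, as were 8.88% of clusters, and Cd68 lower, as were 9%. Only Itgam reached 2-fold, a size that 1.03% of clusters reached with a call. The median size of change was 0.40 over the 5 genes and 0.07 over all clusters, dim ones included. In 2 of the 5 genes no array of one group overlapped the other, against 36.1% of clusters.

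Between the combination and cmB16F1, 2 of 5 genes differed, where 14.1% of clusters did. Without the dim clusters 2509 of 10768 were called, a higher share. Both Csf1r and Adgre1 were lower, as were 7.57% of clusters, and 0 of the 5 genes were higher, as were 6.56% of clusters. Of the 5 genes 0 reached 2-fold, against 1.28% of clusters. A replicate block called Itgax too, which made 3. Scaling to the hybridization controls also called Itgax, at 0.52 (limma adjusted p = 0.00542), and again made 3. The median size of change was 0.16 over the 5 genes and 0.06 over all clusters, dim ones included. In 2 of the 5 genes no arrays overlapped, against 28.5% of clusters.

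Between dexa+IL4 and cmB16F1, 3 of 5 genes differed, where 25% of clusters did. Without the dim clusters 4263 of 10768 were called, a higher share. Cd68 was higher, as were 12.8% of clusters, and Adgre1 and Itgam were lower, as were 12.2%. Itgam reached 2-fold, against 2.14% of clusters. The median size of change was 0.24 over the 5 genes and 0.08 over all clusters, dim ones included. In 4 of the 5 genes no arrays overlapped, against 44.3% of clusters. The comparisons share arrays, so their counts are not independent of each other.

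**Figure D3:**
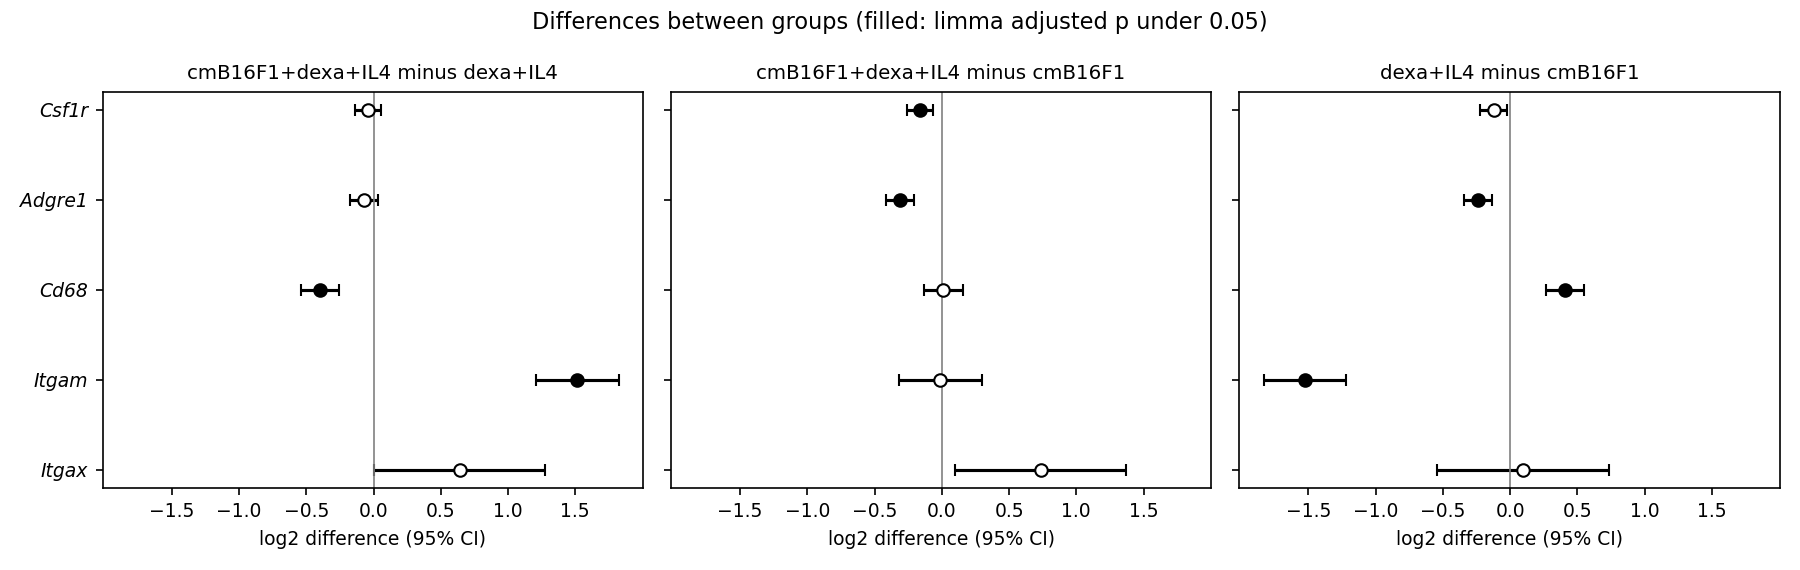
Difference in log2 value between groups (horizontal axis) with its 95% confidence interval from limma, for each gene and comparison. Filled points passed the adjusted threshold of 0.05, and the Itgam points at 1.52 and -1.53 lie farthest from 0.

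**Figure D4:**
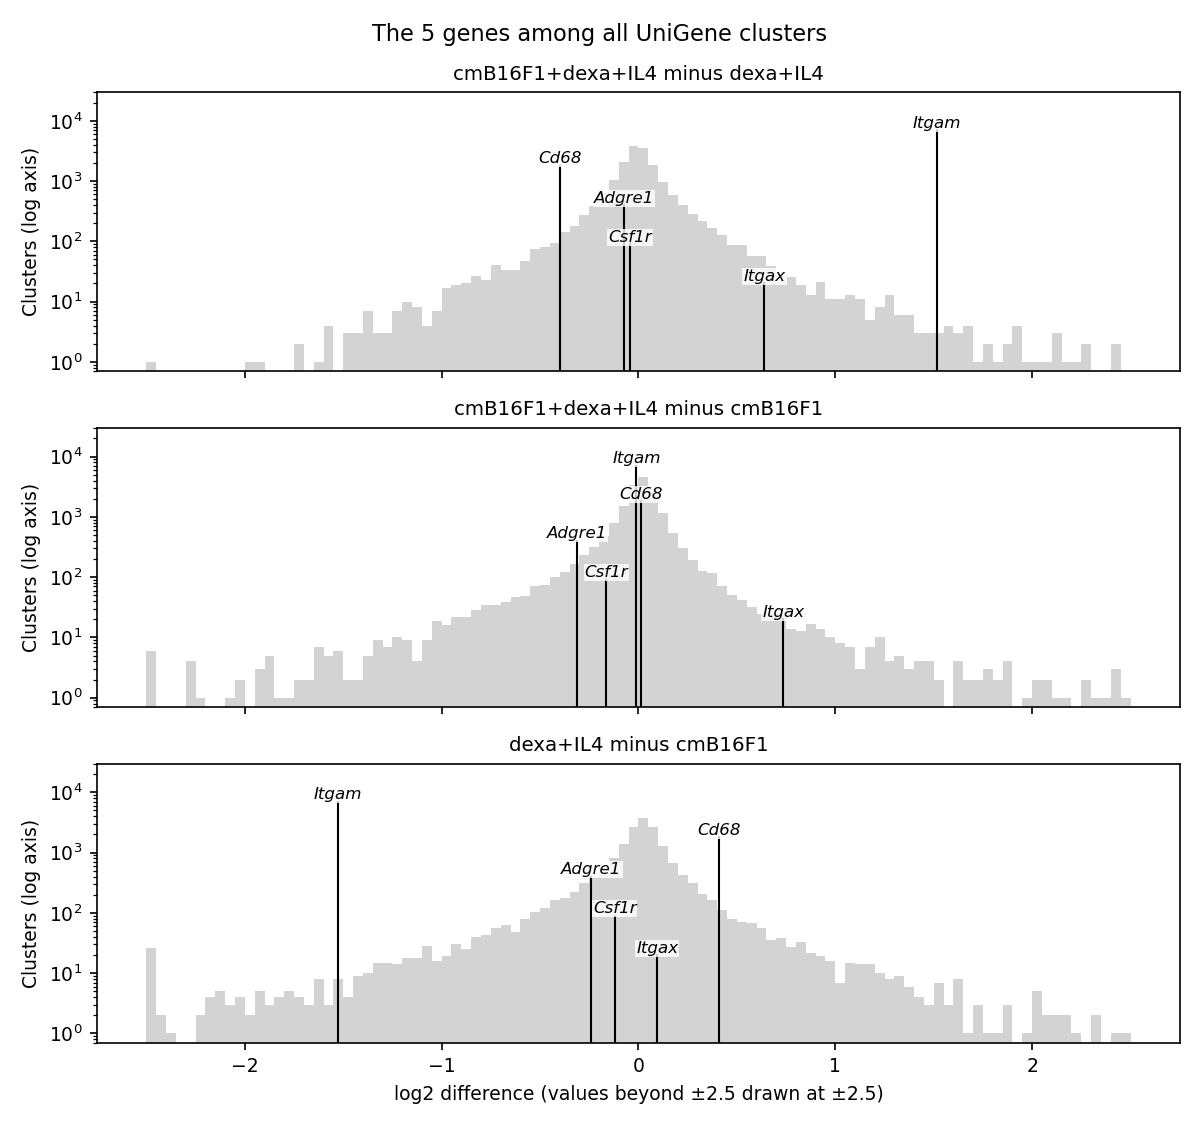
Number of UniGene clusters (vertical log axis) by their log2 difference between groups (horizontal axis, in steps of 0.05), with black lines at the 5 genes. The heights of the lines carry no value. Itgam lies far out in both comparisons with dexa+IL4 and near 0 between the combination and cmB16F1.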

How the data were processed

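Total RNA of bone marrow-derived macrophages was hybridised to Affymetrix arrays of 1 colour, 9 in all, per the labels' protocols. The deposited values are log2 values per UniGene cluster, already normalized between arrays by the authors. That they are on a log2 scale was judged from their range. How the authors corrected background, normalized and summarised probes is not given in the sources used here. Of 17931 sets, 17867 carried a cluster number, and of 57 plus and minus pairs the set with the higher mean was kept, which left 17810 clusters. The RefSeq gene table of GRCm38.p6 named 0 of them, so gene lists other than the 5 genes were not analysed here.

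Groups were compared with limma 3.58.1 in R 4.3.3 (lmFit and trended eBayes), with all 9 arrays in 1 model with group as its only term, and no filter on dim sets. The p-values were adjusted by Benjamini-Hochberg over 17829 features, the clusters and 19 mouse control sets, at a threshold of 0.05. The model was tested on simulated data in which arrays varied independently. Those data did not cover arrays that deviate together, and their outcome is not given here. An exact permutation test of 3 arrays against 3 cannot go below p = 0.1 and was not used for calls. The members, lists and tests were chosen with earlier results of these data known. Named were all 5 genes, control sets that bear on a result, and the cluster most like Csf1r and Adgre1.

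The labels number the arrays 1 to 3 in each group. Deviations from the group means correlated across clusters at 0.617, 0.565 and 0.662 for equal numbers in the combination and cmB16F1, all over the limit of 0.1 for pairing. For the combination and dexa+IL4 they correlated at 0.224, -0.0672 and 0.116, and for dexa+IL4 and cmB16F1 at 0.236, -0.0234 and 0.167, which were not taken as paired. Precision is limited by the number of arrays. Alternatives were quantile normalization, median centring, scaling to the hybridization controls, no trend, robust eBayes, array weights, the replicate block, the lower set of plus and minus pairs, no dim clusters, only the groups compared, and each array left out.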

Additional observations from a re-analysis of the deposited data

How the results depend on the processing

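The 15 differences of the 5 genes were each recomputed under 19 alternatives, and 255 of 285 values kept their sign and their side of the threshold, while 10 lost a call, 10 gained one and 10 changed sign. Many alternatives could move only the p-value and not the sign. These were no trend, robust eBayes, the block, the lower set, no dim clusters, only the groups compared and an array left out of the group not compared. The lower set could not alter the values of the 5 genes, each a single probe set. With scaling to the hybridization controls, 5 of the 5 genes and 7104 clusters were called between the combination and dexa+IL4, and 1893 clusters between dexa+IL4 and cmB16F1. Of the called clusters, 5.34% were then higher and 49.7% in the values as deposited for the combination against dexa+IL4 (38.1% with median centring), and 11.7% and 46.4% for the combination against cmB16F1. Between the combination and cmB16F1, 1 gene was called with robust eBayes and 1 with only these groups in the fit. With single arrays left out, 2 to 3 genes and 2044 to 3356 clusters were called for the combination against dexa+IL4, 1 to 2 genes and 1937 to 2318 clusters for the combination against cmB16F1, and 3 genes and 3218 to 4721 clusters for dexa+IL4 against cmB16F1. All sign changes were in differences that missed the threshold in both fits. Between the combination and cmB16F1, Cd68 was at -0.0028 with median centring, at -0.20 with scaling to the hybridization controls and at -0.036 to 0.064 with single arrays left out, and Itgam at 0.023 with array weights and at -0.16 to 0.12 with single arrays left out. Between dexa+IL4 and cmB16F1, Itgax ran from -0.082 to 0.32 with single arrays left out. With the replicate number as a block, Itgax also passed against dexa+IL4 (limma adjusted p = 0.00407), where the numbers were not taken as pairs, and otherwise the block changed the call of Itgax against cmB16F1 alone. The causes of these changes were not tested. Csf1r and Cd68 lie near the upper end of the scale, where a change may be compressed, which was not tested.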
